A study of Mus musculus with 12 samples.

Results

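The transcripts described here encode 10 proteins of the acute-phase response, measured by RNA sequencing in the mouse heart after acute myocardial infarction (AMI). They are *Lcn2*, *Lrg1*, *Saa3*, *Serpina3n*, *Serpina3m*, *Hp*, *Ptx3*, *Orm1*, *Steap4* and *Cebpd*, 10 of the 53801 genes in the expression tables. The members were named in advance of this description, and *Lcn2* and *Lrg1* were included because earlier results on the same hearts showed them above sham on day 1 and below sham on day 7. Their values are therefore given without a test, and of the other 8 members the 6 with enough counts were tested. These 8 members and the gene lists used below were also chosen with earlier results on these hearts known. The hearts came from C57BL/6N mice, and the operated mice of the study were males of 10 to 14 weeks. There were 4 hearts in each of 3 groups: sham operation, day 1 after AMI and day 7 after AMI. For AMI the left anterior descending coronary artery was tied off under isoflurane anaesthesia. When the sham hearts were taken is not given in the sources used here. No allele or drug distinguished the groups, and RNA was taken from whole hearts, so each library mixes infarcted and remote muscle.

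The acute phase is the change in secreted proteins that follows injury or infection. Its best known source is the liver, where interleukin-6 (IL-6) and related cytokines act through STAT3, and interleukin-1 (IL-1) and TNF act through NF-kB and the C/EBP factors, to raise the transcription of serum amyloids, haptoglobin, orosomucoids and protease inhibitors. Many of the same genes are also transcribed outside the liver, by neutrophils, macrophages, endothelial cells, fibroblasts and fat, and some, such as *Saa3* and *Ptx3*, are known mainly for such local expression.

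The libraries held between 23204551 and 32166517 counts. Counts were scaled with edgeR's TMM factors and are given as CPM, counts scaled to a common library total. The floor, 3 counts in a library, corresponded to between 0.0933 and 0.129 CPM of the library total and covers counting error only. Cardiomyocyte markers summed to between 63978 and 96614 TPM, the abundance per transcript length that RSEM gives, in every heart. Hepatocyte markers summed to between 3.40 and 10.1 TPM, and *Alb*, *Apoc3*, *Serpina1a* and *Cyp3a11* were at 0 in every group. Of 12 neutrophil markers 10 were tested and none was at 0 in a whole group. On day 1, 4 were called higher and 0 lower, against 7.79% and 2.98% of all tested genes. On day 7 against sham it was 1 higher and 1 lower (15.3% and 5.88% of all genes). From day 1 to day 7 it was 0 higher and 7 lower (8.55% and 2.69%). In sham hearts the neutrophil markers summed to 107, 241, 10.5 and 5.10 TPM in replicates 1 to 4. The sums were 230, 497, 120 and 217 TPM on day 1, and 28.1, 15.9, 29.7 and 183 TPM on day 7. Sham replicate 2 thus lay within the range of the day 1 hearts, the other 3 sham hearts lay below it, and day 7 replicate 4 stood apart from the other day 7 hearts. The 7 neutrophil granule genes summed to 30.2 TPM in day 7 replicate 4 and to at most 6.10 TPM in the other 11 hearts. Unlike the neutrophil markers, they were not higher on day 1, with a median sum of 2.2 TPM in sham, 1.6 on day 1 and 2.6 on day 7. Only 1 of the 7 was tested. It was called lower on day 1 (log2 FC −5.75) and higher from day 1 to day 7 (6.52). The granule sums varied widely within groups, with 4.03, 6.10, 0.11 and 0.40 TPM in sham replicates 1 to 4. They were 3.21, 1.90 and 0.75 TPM in day 7 replicates 1 to 3. How far these 2 calls rest on single hearts is not given here. Erythroid markers summed to 15177 TPM in sham replicate 2 and to between 1172 and 4821 TPM elsewhere. In whole tissue, fewer cells of a type and less RNA per cell cannot be told apart.

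The sequence before the start site is where C/EBP, STAT and NF-kB factors are known to act on acute-phase genes, and it is printed for the members with an entry in the RefSeq promoter table (GRCm38.p6). Of the 10 members 6 matched. *Hp*, *Orm1*, *Serpina3m* and *Cebpd* had no entry. Each run is the longest stretch of the 250 bases before the RefSeq start that lies outside annotated exons, on the strand of the gene. The *Lcn2* run lies inside the annotated span of the gene, which is given below. Capitals mark matches on either strand to a C/EBP motif (TTNNGNAA), a STAT motif (TTCNNNGAA) or an NF-kB motif (GGGNNNNNCC).
*Saa3*, chr7:46715701-46715926, minus strand: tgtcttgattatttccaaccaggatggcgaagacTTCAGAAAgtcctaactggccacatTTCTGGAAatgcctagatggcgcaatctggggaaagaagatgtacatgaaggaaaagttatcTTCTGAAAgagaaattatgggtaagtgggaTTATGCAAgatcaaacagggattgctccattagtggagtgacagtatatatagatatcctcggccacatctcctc
*Serpina3n*, chr12:104406458-104406707, plus strand: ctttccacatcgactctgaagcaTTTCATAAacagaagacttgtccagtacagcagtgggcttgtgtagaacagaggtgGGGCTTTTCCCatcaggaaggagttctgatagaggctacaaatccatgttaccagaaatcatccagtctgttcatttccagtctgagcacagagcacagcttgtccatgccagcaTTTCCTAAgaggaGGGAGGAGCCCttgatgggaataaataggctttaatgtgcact
*Ptx3*, chr3:66219637-66219886, plus strand: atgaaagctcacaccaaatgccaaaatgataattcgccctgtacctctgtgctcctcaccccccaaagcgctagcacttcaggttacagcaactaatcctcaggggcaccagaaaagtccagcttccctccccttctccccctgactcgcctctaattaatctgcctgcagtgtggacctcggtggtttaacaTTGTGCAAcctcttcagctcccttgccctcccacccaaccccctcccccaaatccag
*Steap4*, chr5:7960347-7960456, plus strand: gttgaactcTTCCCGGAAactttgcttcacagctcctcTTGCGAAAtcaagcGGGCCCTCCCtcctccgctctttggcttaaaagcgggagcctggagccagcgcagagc
*Lrg1*, chr17:56122002-56122196, minus strand: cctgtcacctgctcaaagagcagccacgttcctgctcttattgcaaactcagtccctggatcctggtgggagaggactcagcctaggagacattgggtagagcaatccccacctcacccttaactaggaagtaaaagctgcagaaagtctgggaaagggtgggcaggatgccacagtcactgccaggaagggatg
*Lcn2*, chr2:32387798-32387850, minus strand: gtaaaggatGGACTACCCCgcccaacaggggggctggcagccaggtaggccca

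Among these 6 genes, 5 held the C/EBP motif in their 250 bases, against 36.8% of 32851 windows of the same length. The NF-kB motif was found in 4 of the 6, against 45.8% of all windows, and the STAT motif in 1 of the 6, against 7.02%. *Saa3* held 4 C/EBP matches. *Serpina3n* held 2 C/EBP matches and 2 places with overlapping NF-kB matches, which are printed joined. *Ptx3* held a single C/EBP match at position −57. *Steap4* was the only one of the 6 with a STAT match, at position −116 from its start site. The run printed for *Lrg1* held no match. The NF-kB match of *Lrg1* (position −34), the C/EBP matches of *Lcn2* (−216) and *Steap4* (−230) and 2 further NF-kB matches of *Steap4* (−250 and −226) fall outside the printed runs. A match describes letters in the window and is not evidence of binding.

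In TPM, which allows genes of different length to be compared, the 10 transcripts together summed to 143, 227, 77.8 and 109 TPM in the 4 sham hearts. On day 1 the sums were 588, 888, 651 and 910 TPM, and on day 7 they were 133, 147, 119 and 384 TPM. In these sums every day 1 heart lay above every other heart, and day 7 replicate 4 lay above the sham hearts while the other 3 day 7 hearts lay among them. The sums include *Lcn2* and *Lrg1*, picked for being above sham on day 1, so the separation of the day 1 hearts partly follows from that choice. Without this pair, day 7 replicate 4 would hold the highest sum. *Lcn2* and *Lrg1* made up between 52.2% and 69.2% of the sum in sham hearts, between 64.9% and 75% on day 1, and between 11.7% and 27.2% on day 7. In day 7 replicate 4, *Saa3* alone made up 47.7%.

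**Figure D1:**
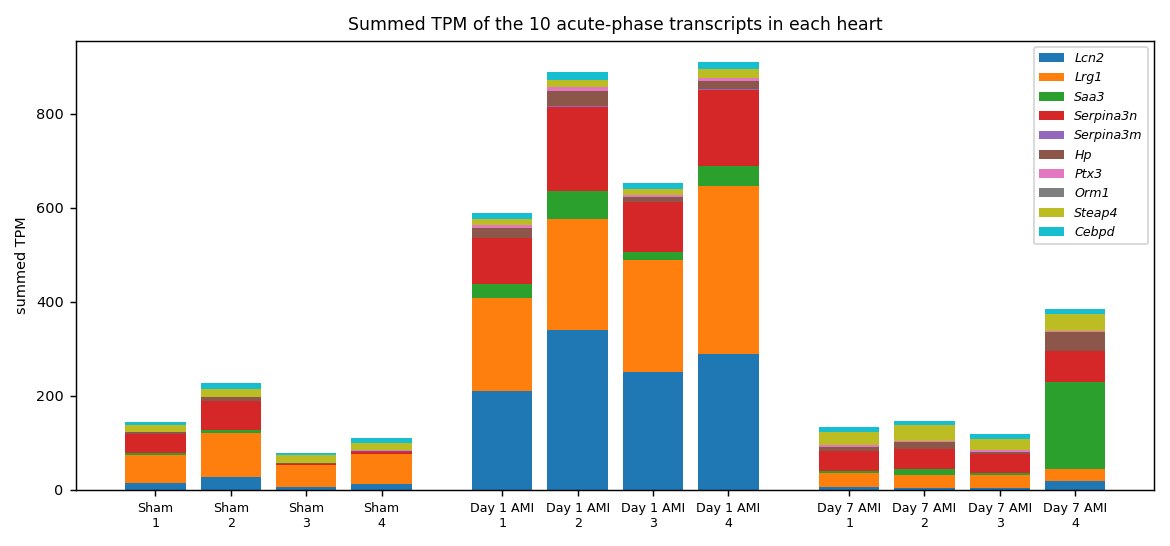
Each bar is 1 heart and stacks the TPM of the 10 transcripts, with the replicate number under the group name and a linear axis from 0. The day 1 AMI bars reach 588 to 910 TPM, and the *Saa3* segment of day 7 AMI replicate 4 is 183 TPM high. The bars include *Lcn2* and *Lrg1*, which were picked for being high on day 1.

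The order of the transcripts differed between groups. In sham hearts *Lrg1* was the most abundant by mean TPM (66.1 ± 20.1, SD, n = 4), followed by *Serpina3n* (28.2 ± 28.7), *Steap4* (15.9 ± 1.46), *Lcn2* (14.6 ± 9.27), *Cebpd* (8.07 ± 3.45), *Hp* (3.44 ± 2.97), *Saa3* (2.10 ± 2.58) and *Ptx3* (0.713 ± 0.155). The ranges of all neighbours in this order overlapped across hearts. Within each sham heart, however, *Lrg1* lay above *Serpina3n*, *Lcn2* above *Cebpd*, and *Cebpd* above *Hp*. On day 1 *Lcn2* (272 ± 54.7 TPM) and *Lrg1* (258 ± 69.7) came first and overlapped, followed by *Serpina3n* (136 ± 40.9), which lay below *Lrg1* and above *Saa3* (36.9 ± 18) in every heart. *Saa3*, *Hp* (20.5 ± 9.32), *Steap4* (15.4 ± 2.72) and *Cebpd* (13.3 ± 2.49) each overlapped the next, and *Ptx3* (6.26 ± 2.17) lay below them. Within each day 1 heart *Saa3* lay above *Hp*. On day 7 the order by median was *Serpina3n* (43.0 TPM), *Steap4* (31.1), *Lrg1* (27.7), *Hp* (11.3), *Cebpd* (9.81), *Saa3* (9.10), *Lcn2* (4.72) and *Ptx3* (3.27). Of the day 7 neighbours only *Serpina3n* and *Steap4* did not overlap, although *Lcn2* lay above *Ptx3* within each day 7 heart. *Serpina3m* and *Orm1* were at or below 0.79 TPM in every heart.

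**Figure D2:**
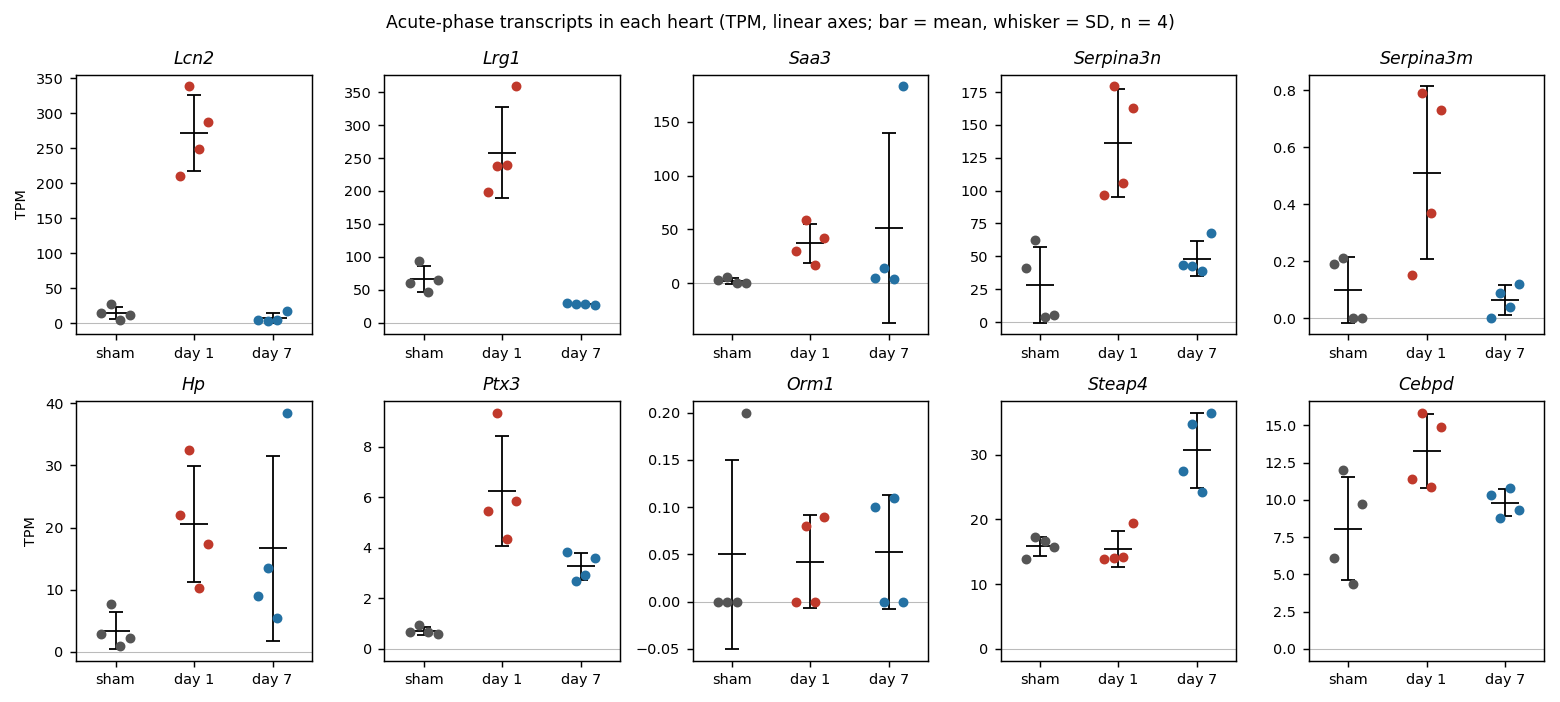
Each point is 1 heart, with replicates 1 to 4 from left to right within a group, each panel has its own linear TPM axis, bars are means and whiskers are SD (n = 4). *Lcn2* lies between 211 and 339 TPM on day 1 and between 3.16 and 17.5 TPM on day 7, *Saa3* reaches 183 TPM in day 7 replicate 4, and *Steap4* is highest on day 7.

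Changes between groups were computed on counts with edgeR's quasi-likelihood test in a joint fit of the 12 libraries. A gene was called when its FC reached 2 and its Benjamini-Hochberg FDR over the 15306 tested genes lay under 0.05. FDR values are the adjusted p-values of this test, and SE is the standard error of a log2 FC. Of the 8 members other than *Lcn2* and *Lrg1*, 6 had enough counts to be tested, and *Serpina3m* and *Orm1* did not. On day 1, *Saa3*, *Serpina3n*, *Hp* and *Ptx3* were called higher than in sham, 4 of the 6 tested, and none was called lower, where 7.79% of all tested genes were called higher and 2.98% lower. On day 7, *Saa3*, *Hp* and *Ptx3* were called higher than in sham, 3 of the 6, and none lower, against 15.3% and 5.88% of all genes. From day 1 to day 7, *Serpina3n* and *Ptx3* were called lower, 2 of the 6, and none higher, against 2.69% and 8.55% of all genes. The median log2 FC of the 6 was 2.11 on day 1, 0.96 on day 7 and −0.64 from day 1 to day 7, beside −0.01, 0.03 and 0.02 over all tested genes. The comparisons share hearts, so their results are not independent. Because the members and lists were chosen with earlier results on these hearts known, the counts beside the shares of all genes are a description.

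Without the fold minimum, at an FDR under 0.05 alone, *Steap4* joined the called members, lower on day 1 and higher on day 7, and *Cebpd* and *Steap4* joined them from day 1 to day 7. This gave 4 higher and 1 lower of the 6 on day 1, against 22% and 19.9% of all genes, and 4 higher and 0 lower on day 7, against 30.9% and 28.4%. From day 1 to day 7 it gave 1 higher and 3 lower, against 24.2% and 22.8%. The CPM of the groups did not overlap for 4 members that were higher and 1 that was lower on day 1 (19.6% and 17.1% of all genes), for 2 that were higher and 0 that were lower on day 7 (28.3% and 24.7%), and for 1 that was higher and 3 that were lower from day 1 to day 7 (23.5% and 20.9%).

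The scale of the values bears on these counts. On log2(TPM + 1), the median of all tested genes shifted to 0.23 on day 1, 0.44 on day 7 and 0.18 from day 1 to day 7. With limma on that scale, 93.8%, 96% and 87.1% of the called genes were higher, where the counts gave 72.3%, 72.3% and 76.1%. Where a small change of a member differs between the scales, both values are given below.

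**Figure D3:**
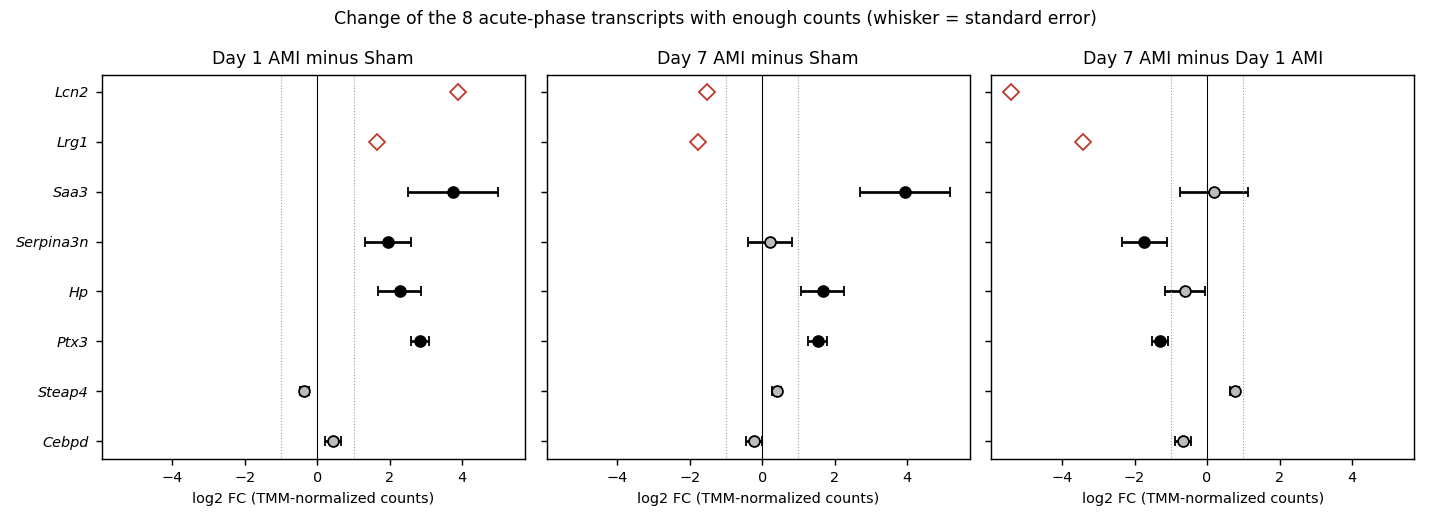
Log2 FC of the 8 members with enough counts in the 3 comparisons (first group minus second), with standard errors. Black points are called, grey points were tested and not called, open diamonds are *Lcn2* and *Lrg1*, shown without a test, and dotted lines mark a FC of 2. *Saa3*, *Serpina3n*, *Hp* and *Ptx3* lie between 1.95 and 3.75 in day 1 AMI minus sham.

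*Lcn2* (ENSMUSG00000026822, chr2:32384633-32388252, minus strand, GRCm38) encodes lipocalin-2, a secreted protein that binds bacterial siderophores and thereby withholds iron, and that is stored in neutrophil granules. It stood at 9.70, 15.1, 2.72 and 7.08 CPM in the 4 sham hearts. The day 1 values were 102, 161, 121 and 132 CPM, and the day 7 values were 2.06, 1.27, 1.84 and 6.77 CPM. Every day 1 heart lay above every sham heart, whereas day 7 replicate 4 lay within the sham range and the other 3 day 7 hearts below it. The fitted FC on day 1 was 14.8, a log2 FC of 3.89, and the day 7 values gave a log2 FC of −1.53 against sham and −5.42 against day 1. Sham replicate 2 and day 7 replicate 4, with neutrophil markers at 241 and 183 TPM, held 15.1 and 6.77 CPM of *Lcn2*. Day 1 replicates 1 and 4, with neutrophil markers at 230 and 217 TPM, held 102 and 132 CPM. The part of neutrophils in these levels was not tested. The value for day 7 against sham moved between −2.32, without day 7 replicate 4, and −1.10, without sham replicate 2, and was −0.93 on log2(TPM + 1).

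*Lrg1* (ENSMUSG00000037095, chr17:56119678-56122001, minus strand) encodes leucine-rich alpha-2-glycoprotein 1, a secreted protein that modulates TGF-beta signalling in endothelium through endoglin. Sham hearts held 64.6, 87.8, 44.9 and 65.6 CPM. Day 1 hearts held 161, 190, 196 and 276 CPM, and day 7 hearts 19.9, 19.0, 19.7 and 17.9 CPM. The 3 groups did not overlap. The neutrophil markers of the day 7 hearts ranged from 15.9 to 183 TPM, and their part in the *Lrg1* level was not tested. The log2 FC was 1.64 on day 1, −1.78 on day 7 against sham and −3.43 from day 1 to day 7. On log2(TPM + 1) the day 7 value against sham was −1.16. In CPM, all day 7 hearts lay below all sham hearts for *Lrg1*, and 3 of 4 did for *Lcn2*. In TPM, day 7 replicate 1 held more *Lcn2* (5.06) than sham replicate 3 (4.78).

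*Saa3* (ENSMUSG00000040026, chr7:46711998-46715700, minus strand) encodes serum amyloid A3, the serum amyloid that mice make in macrophages, fat and epithelia. It was at 0.887, 1.31, 0 and 0 CPM in sham hearts, from 17, 32, 0 and 0 counts. On day 1 it was at 6.23, 12.4, 3.60 and 8.45 CPM, and on day 7 at 0.770, 2.55, 0.664 and 31.3 CPM. All 4 day 1 hearts lay above all sham hearts, while day 7 replicate 4 was above every other heart and day 7 replicates 1 and 3 were within the sham range. *Saa3* rose on day 1 (log2 FC 3.75, SE 1.24, FDR 0.0258). The call was lost, with FDR from 0.0601 to 0.0665, without day 1 replicate 2, sham replicate 3 or sham replicate 4. On day 7 it was called higher than in sham (log2 FC 3.95, SE 1.24, FDR 0.0132), but the groups overlapped (exact two-sided permutation test, p = 0.171) and without day 7 replicate 4 the log2 FC was 1.20 (FDR 0.247). Day 7 minus day 1 gave a log2 FC of 0.20 (SE 0.940, FDR 0.878) with that heart, and −2.55 (FDR 0.0124) without it. With that heart it was −1.10 on log2(TPM + 1) (FDR 0.393). The neutrophil markers were also far higher in that heart than in the other day 7 hearts, 183 against 15.9 to 29.7 TPM, and both sham hearts without a count of *Saa3* had the lowest neutrophil markers of all hearts, 10.5 and 5.10 TPM. The part of neutrophils in these differences was not tested. Of the 75-base stretches of the *Saa3* transcripts, 0.922% also occur in another gene.

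*Serpina3n* (ENSMUSG00000021091, chr12:104406729-104414329, plus strand) and *Serpina3m* (ENSMUSG00000079012, chr12:104338486-104394257, plus strand) belong to a cluster of mouse genes related to human alpha-1-antichymotrypsin, whose products inhibit serine proteases such as cathepsin G. *Serpina3n* was at 74.8, 96.5, 5.77 and 9.08 CPM in sham hearts. It was at 131, 238, 144 and 208 CPM on day 1, and at 48.9, 48.4, 45.9 and 73.4 CPM on day 7. In CPM the sham hearts fell apart, with replicates 1 and 2 above all 4 day 7 hearts and replicates 3 and 4 below all of them, and all day 1 hearts lay above all other hearts. In TPM, sham replicates 1 and 2 (41.4 and 62.3) lay within the day 7 range (39.2 to 67.7). *Serpina3n* rose on day 1 (log2 FC 1.95, SE 0.630, FDR 0.0231), a call that was lost without day 1 replicate 2 (FDR 0.0554). On day 7 the difference from sham was not called (log2 FC 0.22, SE 0.615, FDR 0.781), and it was −0.16 without sham replicate 3 and −0.13 without sham replicate 4. The value was 1.52 on log2(TPM + 1) (FDR 0.0610), against a median of 0.44 over all genes. *Serpina3n* fell from day 1 to day 7 (log2 FC −1.73, SE 0.623, FDR 0.0338). This fall no longer passed without day 1 replicates 2 or 4 or day 7 replicates 1, 2 or 3, with FDR from 0.0637 to 0.0770, nor with limma on log2(TPM + 1) (log2 FC −1.46, FDR 0.0956). The sham hearts high in *Serpina3n*, replicates 1 and 2, were those with neutrophil markers at 107 and 241 TPM, and the low ones were at 10.5 and 5.10 TPM. On day 7, replicates 1 to 3 held 45.9 to 48.9 CPM of *Serpina3n* with neutrophil markers at 15.9 to 29.7 TPM. The part of neutrophils in these levels was not tested. Stretches of *Serpina3n* shared with other genes (*Serpina3g*, *Serpina3e-ps*) made up 1.46%.

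*Serpina3m* had 5, 6, 0 and 0 counts in sham hearts, 4, 27, 12 and 23 counts on day 1, and 0, 2, 1 and 3 counts on day 7. It lay under the filter on low counts and was not tested. Per summed depth, the day 1 hearts held 10.4 times the day 7 level (exact 95% interval 4.52 to 29.3, from 66 and 6 counts) and 4.18 times the sham level (2.19 to 8.79, from 66 and 11 counts), intervals that cover counting error only. The sham and day 1 hearts overlapped, and the day 1 and day 7 hearts did not. Without the filter, edgeR gave a log2 FC of −3.22 from day 1 to day 7 (FDR 0.00397) and of 2.01 on day 1 against sham (FDR 0.0581). Of its 75-base stretches, 9.65% also occur in *Serpina3k* or *Serpina3c*, so reads could have been split among these genes.

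*Hp* (ENSMUSG00000031722, chr8:109575128-109579172, minus strand) encodes haptoglobin, which binds free haemoglobin for uptake by macrophages through CD163. Sham hearts held 2.97, 7.15, 0.922 and 2.20 CPM. Day 1 hearts held 17.8, 25.8, 8.34 and 13.3 CPM, and day 7 hearts 6.04, 9.31, 3.76 and 23.7 CPM. The day 1 hearts lay above the sham hearts, and day 7 replicates 1 and 3 lay within the sham range. *Hp* rose on day 1 (log2 FC 2.27, SE 0.597, FDR 0.00763). On day 7 it was called higher than in sham (log2 FC 1.67, SE 0.597, FDR 0.0262). This second call was lost without sham replicates 1, 3 or 4 (FDR from 0.0611 to 0.0693) and without day 7 replicate 4, where the log2 FC was 0.92 (FDR 0.156). Day 7 minus day 1 gave a log2 FC of −0.61 (SE 0.542, FDR 0.378), and −1.36 and called without day 7 replicate 4. The hearts highest in *Hp* within their groups, sham replicate 2, day 1 replicate 2 and day 7 replicate 4, were also the highest in neutrophil markers (241, 497 and 183 TPM), and the part of neutrophils in this was not tested. Sham replicate 2 also had the highest erythroid markers.

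**Figure D4:**
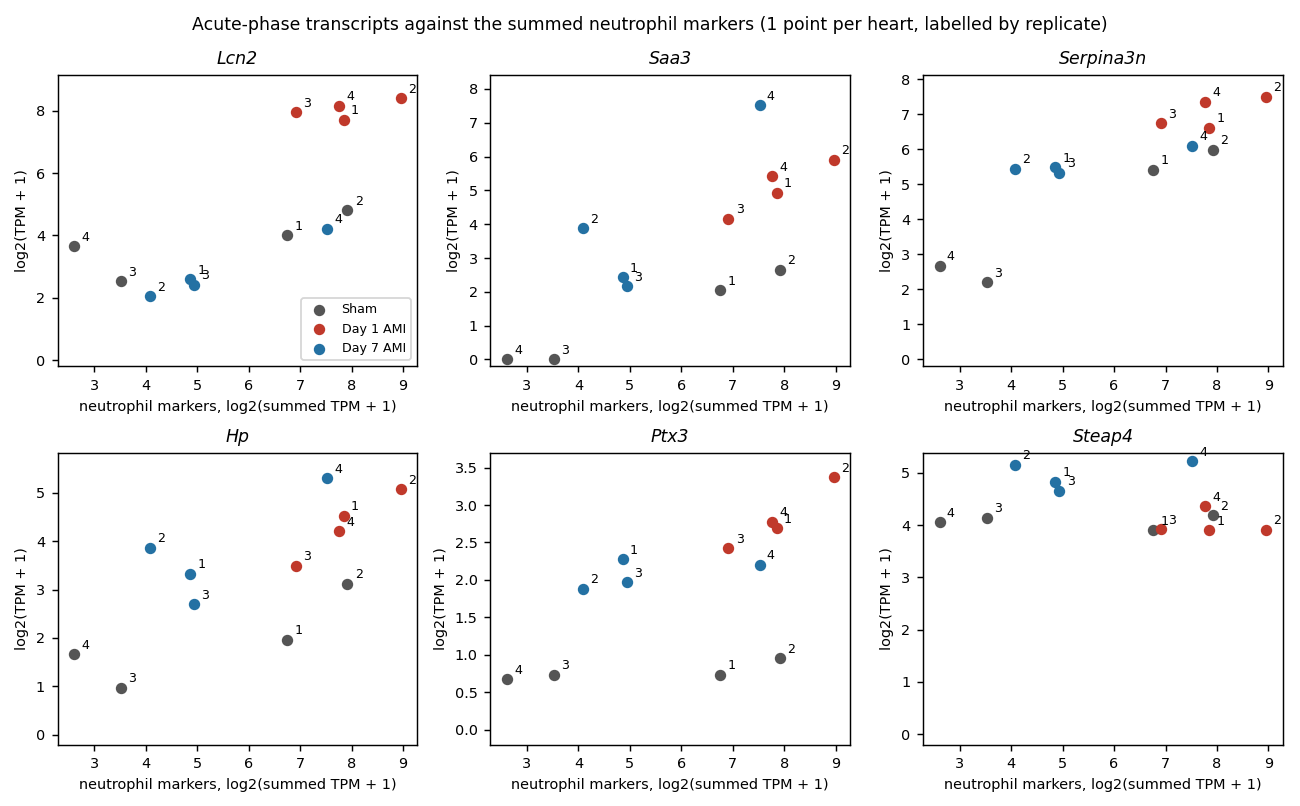
Each point is 1 heart, labelled by replicate, with the summed TPM of 12 neutrophil markers on the x axis and the TPM of a member on the y axis, both as log2(TPM + 1). *Saa3*, *Serpina3n* and *Hp* are higher in sham replicates 1 and 2 and in day 7 replicate 4 than in most hearts of the same group, *Lcn2* is highest in the 4 day 1 hearts, and *Steap4* is highest on day 7, where 3 of 4 marker sums are below 30 TPM.

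*Orm1* (ENSMUSG00000039196, chr4:63344560-63348163, plus strand) encodes orosomucoid 1, an acute-phase carrier of small molecules made mainly by the liver. It had 2 counts in each group and at most 2 in a library, all under the floor, so no FC is given. *Orm2* and *Orm3*, its neighbours in the family, had at most 1 count per library, and 13.8% of the 75-base stretches of *Orm1* also occur in *Orm2*. The serum amyloids known from liver were as low: *Saa1* had at most 2 counts and *Saa2* at most 1 count in a library. At this depth these transcripts were not detectable in any group, whereas *Saa3* reached 919 counts.

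*Ptx3* (ENSMUSG00000027832, chr3:66219910-66225805, plus strand) encodes the long pentraxin 3, a soluble pattern recognition protein that binds C1q and P-selectin. It was at 1.04, 1.31, 0.825 and 0.908 CPM in sham hearts. It was at 6.58, 11.2, 5.23 and 6.46 CPM on day 1, and at 3.45, 2.43, 2.88 and 3.16 CPM on day 7. The 3 groups did not overlap. *Ptx3* rose on day 1 (log2 FC 2.84, SE 0.255, FDR 8.16e-06). It remained above sham on day 7 (log2 FC 1.53, SE 0.260, FDR 0.000157) and fell from day 1 to day 7 (log2 FC −1.30, SE 0.224, FDR 0.000331). These calls held with each heart left out in turn, and the fall was under a FC of 2 with limma on log2(TPM + 1) (−0.73, FDR 0.00459). In sham hearts *Ptx3* lay between 0.825 and 1.31 CPM and neutrophil markers between 5.10 and 241 TPM, and the part of neutrophils was not tested.

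*Steap4* (ENSMUSG00000012428, chr5:7960457-7982213, plus strand) encodes a membrane reductase of iron and copper that is known in fat, liver and macrophages. Sham hearts held 40.4, 43.0, 43.1 and 42.8 CPM. Day 1 hearts held 30.3, 30.1, 31.1 and 40.1 CPM, and day 7 hearts 49.6, 63.7, 45.6 and 63.6 CPM. The groups did not overlap, with day 1 lowest and day 7 highest. *Steap4* changed by less than a FC of 2 in each comparison, and its FDR lay under 0.05 in each. The day 1 FDR rose above that, to between 0.0532 and 0.0770, without sham replicates 3 or 4 or day 1 replicates 1, 2 or 3. The log2 FC was −0.36 on day 1 (SE 0.121, FDR 0.0262), 0.39 on day 7 (SE 0.120, FDR 0.0113) and 0.76 from day 1 to day 7 (SE 0.120, FDR 0.000182). On log2(TPM + 1), where the median of all genes was 0.23 on day 1 and 0.44 on day 7, the changes were −0.05 (FDR 0.803) and 0.89 (FDR 0.000103). Set against the median of all genes, *Steap4* was lower on day 1 on both scales. Fibroblast markers summed to between 4442 and 7241 TPM on day 7 and at most 1677 TPM in the other hearts, and adipocyte markers to between 35.1 and 72.4 TPM in all hearts. The part of these cells in the day 7 level was not tested.

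*Cebpd* (ENSMUSG00000071637, chr16:15887286-15891031, plus strand) encodes C/EBP-delta, a transcription factor that cytokines induce and that binds acute-phase promoters. It was at 21.4, 36.1, 13.6 and 29.9 CPM in sham hearts. It was at 30.0, 40.8, 28.7 and 36.9 CPM on day 1, and at 22.4, 19.5, 24.5 and 19.6 CPM on day 7. The sham hearts spanned most of the range of the other groups. No difference from sham was called, with a log2 FC of 0.43 on day 1 (SE 0.223, FDR 0.135) and −0.24 on day 7 (SE 0.224, FDR 0.382). On log2(TPM + 1) the day 1 value was 0.72 (FDR 0.0207) and the day 7 value turned to 0.33 (FDR 0.211), against medians of 0.23 and 0.44 over all genes. Without sham replicate 2 the count fit gave 0.66 on day 1 (FDR 0.0234). From day 1 to day 7 the hearts did not overlap and the log2 FC was −0.67 (SE 0.222, FDR 0.0238), under a FC of 2, and −0.39 on log2(TPM + 1) (FDR 0.186). Without day 1 replicates 2 or 4 or day 7 replicates 2 or 4 its FDR lay between 0.0537 and 0.0636. Antisense *Spidr* covers 15% of the exon bases of *Cebpd*, and the strand counted is not given in the sources used here.

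The genes with the pattern most like each member were sought by Pearson's r of log2 CPM over the 12 libraries, which share groups and depth, and are given as a description. *Saa3* and *Hp* were each among the 3 genes most like the other (r = 0.951), and *Bst1* was near both (r = 0.952 with *Saa3*, 0.943 with *Hp*). *Serpina3n* was most like *Fpr1* (r = 0.978), *Cd24a* (0.972) and *Gda* (0.951). *Ptx3* was most like *Hmox1* (0.979), *Pdpn* (0.976) and *Tpd52* (0.976). *Lrg1* was most like *Psmd3* (0.983), *Hspb2* (0.979) and *Psmd7* (0.979), and *Lcn2* most like *Tmem248* (0.968), *Ebna1bp2* (0.966) and *Aspscr1* (0.955). For *Steap4* the nearest was *Cttnbp2* (0.929) and for *Cebpd* it was *Tpbgl* (0.884). Pearson's r does not weigh the size of a change. *Tmem248* stood at 45.3 CPM in sham, 55.6 on day 1 and 41.7 on day 7, where *Lcn2* stood at 8.64, 129 and 2.99. *Fpr1* was low, at 0.228, 0.867 and 0.370 CPM. With the group means removed, r stayed at 0.954 for *Serpina3n* and *Fpr1* and at 0.888 for *Saa3* and *Hp*, and it was 0.584 for *Lcn2* and *Tmem248* and 0.333 for *Lrg1* and *Psmd3*.

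Of 34 cytokines, receptors and transcription factors upstream of the acute phase 32 were tested, and 11 were called higher and 0 lower on day 1, against 7.79% and 2.98% of all genes. On day 7 against sham 10 were called higher and 0 lower (15.3% and 5.88% of all genes), and from day 1 to day 7 it was 0 higher and 5 lower (8.55% and 2.69%). Their median log2 FC was 0.64, 0.59 and 0.04 in the 3 comparisons, beside −0.01, 0.03 and 0.02 over all genes. *Il6*, the chief inducer of acute-phase genes in liver, had 3, 2, 0 and 1 counts in sham hearts, between 24 and 55 on day 1 and between 22 and 43 on day 7, and was called higher at both times (FDR 7.66e-05 and 2.72e-05). *Il11*, of the same cytokine family, had at most 1 count in a sham library, between 18 and 109 on day 1 and between 4 and 19 on day 7. Oncostatin M (*Osm*) had at most 3 counts in a sham library, and rose to 1.12 CPM on day 1 and was at 0.496 CPM on day 7, with a fall from day 1 to day 7 of log2 FC −1.15 (SE 0.295, FDR 0.00562). *Lif* rose by log2 FC 2.54 on day 1 and 2.23 on day 7, and *Clcf1* by 2.49 and 1.11. *Il1b* rose by 3.94 on day 1 and fell by 1.85 on the log2 scale from day 1 to day 7, and *Tnf* rose by 1.97 on day 1 and 2.05 on day 7. On log2(TPM + 1), a scale that understates changes of low genes, the day 1 changes of *Osm* (0.71), *Lif* (0.99) and *Tnf* (0.90), the day 7 change of *Lif* (0.82) and the day 1 to day 7 changes of *Osm* (−0.33) and *Clcf1* (−0.80) were under a FC of 2.

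Downstream of these cytokines, *Socs3*, a STAT3 target that limits IL-6 signalling, was at 10.7 CPM in sham, 39.5 on day 1 and 13.2 on day 7. Its log2 FC was 1.87 on day 1 (SE 0.463, FDR 0.00547) and −1.58 from day 1 to day 7 (SE 0.453, FDR 0.0106). *Stat3* itself stood at 179, 293 and 181 CPM, with a log2 FC of 0.71 on day 1 (FDR 0.00202) and −0.69 from day 1 to day 7 (FDR 0.00177), both under a FC of 2. *Nfkbiz*, a nuclear cofactor of NF-kB, rose by 1.02 on day 1 and by 1.63 on day 7. The day 1 value of *Nfkbiz* fell under a FC of 2 without sham replicates 3 or 4 or day 1 replicates 1 or 2 (lowest 0.84), and on log2(TPM + 1) (0.94). *Osmr*, the oncostatin M receptor, rose by 1.12 on day 1, and by 0.95 and 0.99 without sham replicates 3 and 4. *Il6ra* and *Il1r1*, receptors of IL-6 and IL-1, had log2 FCs of 0.54 and 0.68 on day 1 and 0.68 and 0.98 on day 7, under a FC of 2. The day 7 value of *Il1r1* was called in 3 fits with a heart left out. It was also called with limma on log2(TPM + 1) (1.32, against a median of 0.44 over all genes) and log2(TPM + 0.1) (1.49). The day 7 value of *Il6ra* was called with limma on log2(TPM + 0.1) (1.14). *Cebpb* stood at 50.05 CPM in sham, 53.6 on day 1 and 27.9 on day 7, with a log2 FC of −0.94 from day 1 to day 7 (FDR 0.00279). *Nr3c1*, the glucocorticoid receptor, stood at 93.7, 83.9 and 102 CPM.

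**Figure D5:**
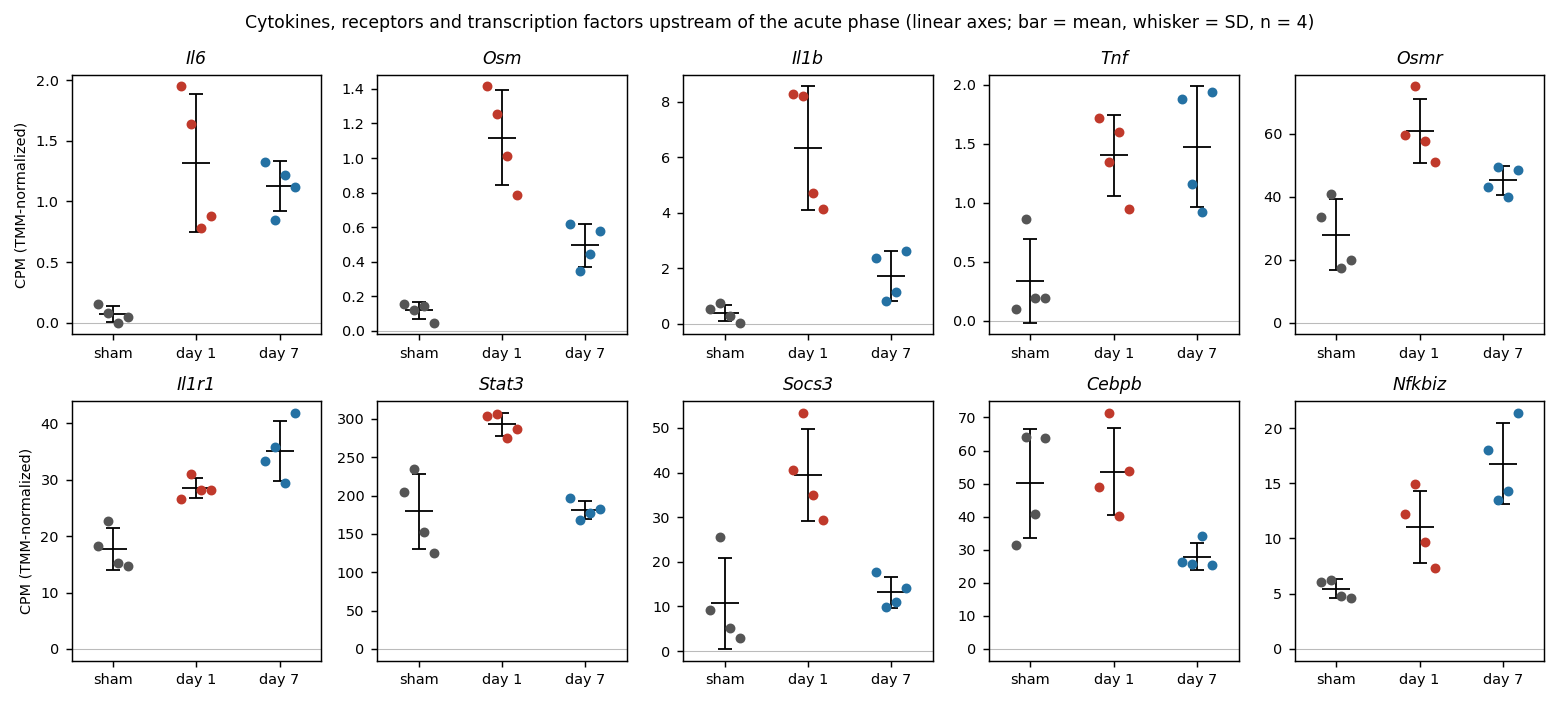
CPM of 10 upstream genes in each heart (points, replicates 1 to 4 from left to right), with means (bars) and SD (whiskers, n = 4), each panel with its own linear axis. *Socs3*, *Stat3*, *Osm* and *Il1b* are highest on day 1, while *Nfkbiz* is highest on day 7.

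Of 39 other acute-phase genes only 21 had enough counts to be tested, and transcripts of liver type such as *Apcs*, *Fga* and *Fgg* were at 0 in every heart. On day 1 6 were called higher and 1 lower, against 7.79% and 2.98% of all genes. On day 7 against sham 8 were called higher and 1 lower (15.3% and 5.88% of all genes), and from day 1 to day 7 3 higher and 5 lower (8.55% and 2.69%). Their median log2 FC was −0.25, 0.54 and 0.19, beside −0.01, 0.03 and 0.02 over all genes. *Il1rn*, the IL-1 receptor antagonist, had at most 5 counts in a sham library, 113 to 265 on day 1 and 40 to 52 on day 7, and was called at each step. *Steap1*, a relative of *Steap4*, had at most 5 counts in a sham library and 34 to 52 on day 1. *Steap2* rose by log2 FC 2.48 on day 1 and 2.64 on day 7. Within the Serpina3 cluster, *Serpina3i* rose by 2.85 on day 1 and by 2.81 on day 7, and *Serpina3g* was at 1.36 CPM in sham, 0.801 on day 1 and 4.51 on day 7. The day 7 rise of *Serpina3g* over sham (log2 FC 1.72, FDR 0.0121) was 0.91 and not called without day 7 replicate 4. *Serpina3c* was at 1.16 CPM in sham and at 0.467 and 0.542 CPM on days 1 and 7, called lower at both times. The day 1 call was lost without sham replicate 2 or day 1 replicates 1 or 3, and the day 7 call without sham replicates 1 or 2 or any of the day 7 hearts. Neither call was made by limma on log2(TPM + 1) (−0.31 and −0.18).

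Among the remaining acute-phase genes, the metallothionein *Mt2* rose on day 1 (log2 FC 2.02, SE 0.461, FDR 0.00333) and fell from day 1 to day 7 (−2.77, SE 0.475, FDR 0.000326), and *Mt1* fell by 1.55 on the log2 scale from day 1 to day 7. Complement factor B (*Cfb*) stood at 3.37, 6.93 and 20.7 CPM and rose on day 7 against sham (log2 FC 2.61, SE 0.560, FDR 0.00105), by 1.83 without day 7 replicate 4. Its rise from day 1 to day 7 (1.58) was 0.80 and not called without day 7 replicate 4, and was also not called without day 1 replicates 1 or 3. *Hamp*, the iron regulator hepcidin, had a log2 FC of −1.84 from day 1 to day 7 (FDR 0.0308), which was lost without day 1 replicates 1 or 2 or day 7 replicates 2 or 4, with the replicate block (FDR 0.0628) and with limma (FDR 0.0553).

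Of 34 receptors and partners of the member proteins 31 were tested, and 8 were called higher and 0 lower on day 1, against 7.79% and 2.98% of all genes. On day 7 against sham 13 were called higher and 0 lower (15.3% and 5.88% of all genes), and from day 1 to day 7 4 higher and 4 lower (8.55% and 2.69%). Their median log2 FC was 0.37, 0.89 and 0.29, beside −0.01, 0.03 and 0.02 over all genes. *Slc22a17*, a receptor of lipocalin-2, stood at 4.44 CPM in sham, 4.59 on day 1 and 10.1 on day 7, and rose on day 7 (log2 FC 1.18 against sham, SE 0.155, FDR 1.78e-05). *Slc22a17* was thus called higher on day 7, when *Lcn2* was at 1.27 to 6.77 CPM. *Mmp9*, a protease that lipocalin-2 binds, rose on day 1 (3.33, SE 0.491, FDR 0.000167) and fell to day 7 (−4.30, SE 0.518, FDR 1.94e-05). For *Lrg1*, endoglin (*Eng*) stood at 278, 222 and 288 CPM and was not called, and the TGF-beta receptor *Tgfbr1* rose on day 7 (1.21, SE 0.0863, FDR 9.68e-08).

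*Tlr2*, a receptor for serum amyloid A, rose at each step, by 1.09 on day 1 and 2.14 on day 7 against sham, and by 1.05 from day 1 to day 7, which was 0.96 without day 1 replicate 3 and 0.91 without day 7 replicate 4. *Fpr2*, another such receptor, had a log2 FC of 2.33 on day 1 (FDR 0.0399), which was lost without sham replicates 1, 3 or 4 or day 1 replicates 1, 2 or 4 (FDR up to 0.120). *P2rx7* rose on day 7 by 1.53. For *Hp*, the haemoglobin scavenger receptor *Cd163* stood at 21.5, 20.8 and 13.4 CPM, with a log2 FC of −0.69 on day 7 against sham (FDR 0.0112), and haem oxygenase 1 (*Hmox1*) stood at 8.71, 83.8 and 29.3 CPM. *Hmox1* rose on day 1 (3.26, SE 0.299, FDR 8.16e-06) and fell by 1.51 to day 7. The ferritin chain *Ftl1* rose by 1.01 on day 1 and 1.00 on day 7, close to a FC of 2. The day 1 value fell under a FC of 2 without sham replicates 1, 3 or 4 or day 1 replicate 2 (lowest 0.93), and the day 7 value with DESeq2 or RLE factors (0.98 each), with the compared groups alone (0.99), with the replicate block (0.995) and without sham replicates 1, 3 or 4, day 1 replicates 1, 2 or 4 or day 7 replicate 1 (lowest 0.82). For *Ptx3*, *C1qb* rose on day 7 (1.42, FDR 3.19e-05), *Tnfaip6* by 1.25 on day 7, lost without sham replicates 3 or 4, and P-selectin (*Selp*) rose on day 1 (2.36, FDR 0.00083) and fell to day 7 (−1.29, FDR 0.0162), a fall lost without day 1 replicate 2 and with limma (−0.64). On log2(TPM + 1) the day 1 rise of *Tlr2* was 0.99. Monocyte and macrophage markers summed to 297 to 560 TPM in sham, 707 to 1048 on day 1 and 1236 to 2014 on day 7, and the part of these cells in the changes of the receptors was not tested.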

How the data were processed

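RNA from 12 whole mouse hearts (4 per group, grouped by label) was sequenced as paired-end reads. The authors trimmed the reads, aligned them with STAR 2.4.0j to Ensembl GRCm38 and quantified TPM with RSEM. The authors deposited raw counts per gene, without normalization, and TPM rounded to 2 decimals. The counting tool and strand are not given in the sources used here. No per-sample column was left unused.

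Counts were tested with edgeR 4.0.16 (R 4.3.3): TMM factors, filterByExpr, and the quasi-likelihood test on 3 groups, over 15306 genes. Standard errors are those implied by the F statistic. The authors' DESeq2 was run as an alternative (1.42.0), beside limma 3.58.1 on log2-transformed TPM (pseudocount 1 or 0.1), RLE factors, no filter, the compared groups alone, a replicate block, no fold minimum and each heart left out. The lowest chi-square per degree of freedom between hearts of a group was 9.45, so no library was a repeat. Tested on simulated data for day 1 AMI against sham (15306 genes), edgeR recovered 199 of 200 changed genes with 3 false calls.

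The members and lists were chosen with earlier results of these data known. The genes named are the members, up to 6 called genes per list and comparison with the largest change and at least 1 CPM, a fixed set of cytokines, receptors and relatives, and the 3 genes most like each member. Gene positions are those of GENCODE M21 (GRCm38), and upstream sequences those of RefSeq.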

Additional observations from a re-analysis of the deposited data

Results flagged for a closer look

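*Serpina3n* in day 7 AMI replicate 4 (73.4 CPM) lay far above the other 3 day 7 hearts, by Dixon's test on the log2 scale. *Steap4* in sham replicate 1 (40.4 CPM) lay far below the other sham hearts, and *Steap4* in day 1 AMI replicate 4 (40.1 CPM) far above the other day 1 hearts. Of 26 groups tested 3 were marked, where chance alone marks about 1 in 20 groups in this way. The sham hearts of *Steap4* spanned only 40.4 to 43.1 CPM.

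The change against sham differed between day 7 and day 1 for *Serpina3n* by −1.73 on the log2 scale (edgeR, adjusted p = 0.0338) and for *Ptx3* by −1.30 (adjusted p = 0.000331). Both differences share the sham hearts and equal the day 7 minus day 1 comparison.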

How the results depend on the processing

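The counts of members called on day 1 and day 7 against sham were 4 and 3 in every alternative that kept the 12 libraries and the fold minimum. With hearts left out, between 2 (without day 1 replicate 2) and 5 members were called on day 1, between 1 (without day 7 replicate 4) and 3 on day 7, and between 1 and 5 (without day 7 replicate 4) from day 1 to day 7. In that last comparison both limma fits called 0 members and the absence of a fold minimum gave 4.

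The directions that turned were those of values that were not called. *Saa3* from day 1 to day 7 was −0.98 with the replicate block, −1.10 and −1.23 with limma on log2(TPM + 1) and log2(TPM + 0.1), −0.04 without day 1 replicate 3 and −2.55 without day 7 replicate 4, and at most 0.59 without another heart. *Serpina3n* on day 7 against sham was −0.16 and −0.13 without sham replicates 3 and 4, up to 0.86 without another heart, and 1.52 and 1.64 (FDR 0.0610 and 0.0573) in the limma fits. *Cebpd* on day 7 against sham was 0.33 and 0.38 in the limma fits. Where a heart was left out the change lies in that heart, and for the other alternatives the cause was not tested.

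With limma on log2(TPM + 1), 1020 genes were called on day 1 and 1009 from day 1 to day 7. Without a fold minimum 6403, 9081 and 7197 genes were called in the 3 comparisons. Of the upstream genes it called 23, 27 and 15, and of the receptors and partners 15, 23 and 20. The limma fits called 2 and 3 upstream genes from day 1 to day 7, and 20 on day 7 against sham with the smaller pseudocount. Of the other acute-phase genes, between 5 and 8 were called from day 1 to day 7 with hearts left out.

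Replicate numbers did not pair the hearts. Hearts of the same number deviated together with r from −0.244 to 0.229, above 0.1 in 4 of 12 pairs. A block for the replicate number gave 1621, 3240 and 1696 genes and the same 4, 3 and 2 counts of members, and changed no call of a member. The depth limits *Serpina3m* and *Orm1*, and 4 hearts per group limit *Saa3*, *Serpina3n* and *Hp*, whose calls were lost when some single hearts were left out, and *Steap4*, whose day 1 FDR rose above 0.05 in 5 such fits.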
